A study of Homo sapiens with 12 samples.

Results

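Chromatin accessibility in untreated MOLM13 cells was compared with that in untreated MV4-11 cells by bulk ATAC-seq, in which the Tn5 transposase inserts sequencing adapters into open DNA. Both are established human acute myeloid leukaemia (AML) lines. Of the 12 libraries of the series, the 4 control libraries were used, MOLM13 control 1 and 2 and MV4-11 control 1 and 2. None of these had received VTP50469, the menin inhibitor given to the treated libraries at 500 nM for 16 h. MOLM13 had been grown in RPMI and MV4-11 in IMDM, each with 20% foetal bovine serum, so line and medium cannot be told apart. All cells had been frozen before nuclei were isolated. The 4 peak lists held 419328 peaks on chromosomes 1 to 22, of 1173156 in all 12 lists. Each list was kept to its 77753 strongest peaks by −log10 p, the length of the shortest list, and kept peaks that overlapped by at least 1 bp were merged into 129174 regions. A region was called MOLM13-only when both MOLM13 controls and neither MV4-11 control had a kept peak there, and MV4-11-only in the reverse case.

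Both lines carry a rearrangement of KMT2A (MLL1), a histone H3 lysine 4 methyltransferase, but the partner differs: MOLM13 expresses MLL-AF9, with the partner encoded by MLLT3, and MV4-11 expresses MLL-AF4, with the partner encoded by AFF1. Such fusion proteins bind chromatin together with menin, recruit elongation factors and the methyltransferase DOT1L, and keep genes such as MEIS1 and the HOXA genes expressed. An accessible promoter is a stretch of DNA that is free of nucleosomes near a transcription start. A peak marks such a stretch, and the lack of a peak means that the caller found too few reads, which does not show that the site was closed. Zinc finger genes of chromosome 19, outside the known fusion targets, also come into the comparison. Most of these encode repressors that bind DNA through arrays of C2H2 zinc fingers, and many carry a KRAB domain that recruits TRIM28 and silences transposable elements.

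The promoters below were picked, after the values had been seen, from the 10 strongest line-only promoters in each direction. ZNF724, ZNF91, ZNF132 and ZNF582 were MV4-11-only and all carry the motif marked in them. SLC2A8 and CPPED1 were MOLM13-only and are shown as promoters without it, so the difference on display comes from the choice. Each sequence is the 250 bases upstream of the start site in RefSeq (GRCh38.p14), read 5′ to 3′ on the strand of the gene. ZNF724 is at chr19:23250395-23250644, ZNF91 at chr19:23395472-23395721, ZNF132 at chr19:58440154-58440403, ZNF582 at chr19:56393535-56393784 and CPPED1 at chr16:12803888-12804137, all on the minus strand, and SLC2A8 is at chr9:127396919-127397168 on the plus strand. Capitals mark CCGGAAG, a core motif of ETS family transcription factors, on either strand.
ZNF724: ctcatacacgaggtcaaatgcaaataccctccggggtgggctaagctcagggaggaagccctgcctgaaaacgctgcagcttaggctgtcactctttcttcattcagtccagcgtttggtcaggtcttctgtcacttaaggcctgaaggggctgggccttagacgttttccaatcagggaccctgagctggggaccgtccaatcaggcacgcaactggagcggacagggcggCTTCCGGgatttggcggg
ZNF91: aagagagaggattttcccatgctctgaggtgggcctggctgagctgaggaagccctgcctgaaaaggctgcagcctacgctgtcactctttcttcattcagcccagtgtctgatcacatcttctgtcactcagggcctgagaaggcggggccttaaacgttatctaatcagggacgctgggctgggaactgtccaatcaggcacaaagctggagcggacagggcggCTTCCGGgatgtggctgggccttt
ZNF132: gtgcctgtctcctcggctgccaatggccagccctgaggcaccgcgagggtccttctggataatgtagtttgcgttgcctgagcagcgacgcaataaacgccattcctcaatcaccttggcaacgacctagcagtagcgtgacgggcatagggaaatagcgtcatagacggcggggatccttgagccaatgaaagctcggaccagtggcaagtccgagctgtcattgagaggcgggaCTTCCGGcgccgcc
ZNF582: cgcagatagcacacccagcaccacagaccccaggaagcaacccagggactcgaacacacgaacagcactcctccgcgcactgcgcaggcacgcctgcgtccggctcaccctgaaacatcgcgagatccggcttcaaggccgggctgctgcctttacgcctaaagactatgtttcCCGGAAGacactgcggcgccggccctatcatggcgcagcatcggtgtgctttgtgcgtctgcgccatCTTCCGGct
SLC2A8: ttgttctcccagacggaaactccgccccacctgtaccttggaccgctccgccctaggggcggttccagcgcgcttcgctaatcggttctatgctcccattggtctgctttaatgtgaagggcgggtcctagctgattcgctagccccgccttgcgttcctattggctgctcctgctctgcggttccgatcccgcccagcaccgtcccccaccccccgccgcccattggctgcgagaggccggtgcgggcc
CPPED1: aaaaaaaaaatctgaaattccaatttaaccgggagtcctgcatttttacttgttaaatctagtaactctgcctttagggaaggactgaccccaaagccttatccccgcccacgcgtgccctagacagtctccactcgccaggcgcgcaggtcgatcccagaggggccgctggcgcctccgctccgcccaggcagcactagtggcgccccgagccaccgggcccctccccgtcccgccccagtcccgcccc
The motif began 18 bases upstream of the start of ZNF724, 24 bases upstream of ZNF91 and 14 bases upstream of ZNF132. ZNF582 held it 76 and 9 bases upstream. The SLC2A8 and CPPED1 stretches did not hold it. Promoters not shown went the other way. UGGT2, among the 10 strongest MOLM13-only promoters, held it 12 bases upstream. The 250 bases upstream of ZNF585B, among the 10 strongest MV4-11-only promoters, did not.

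CCGGAAG was searched on both strands from 250 bases before to 50 bases after the start site, as 1 of 10 motifs, and is given here because its share stood out once the values had been seen. Of the 45 MV4-11-only zinc finger promoters of chromosome 19 that the RefSeq promoter table held, 29 (64.4%) had it. Among zinc finger promoters of chromosome 19 with a peak in all 4 libraries, 49 of 109 (45.0%) had it. The share was 14.4% of all 15101 promoters in the table, 21.4% of promoters with a peak in all 4 libraries, 5.56% of 198 MOLM13-only promoters and 11.5% of 227 other MV4-11-only promoters. The motif was thus frequent in the zinc finger promoters of chromosome 19 whether or not MOLM13 had a peak there. The median number of CpG dinucleotides in the same window was 20 in the MV4-11-only zinc finger promoters, 22 in those with a peak in all 4 libraries and 22 in all promoters. The start site of the table was that used for the peaks in 83.7% of genes.

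The 4 libraries differed in peak number and in summit reads, and the part of depth in the comparisons was not tested. The lists held 77753 peaks in MOLM13 control 1, 90270 in MOLM13 control 2, 122425 in MV4-11 control 1 and 128880 in MV4-11 control 2. Sequencing totals were not given, so the reads over each summit were recovered from the fold and the p-value of the peak. At regions called in all 4 libraries the median summit had 14, 17, 26 and 29 reads, in the same order. An exact two-sided permutation test of 2 against 2 libraries cannot go below p = 0.333, so no single measure of a library was tested. The labels do not say whether the libraries of a line came from separate cultures, and p-values then measure only the spread between these libraries. As markers of myeloid leukaemia, SPI1, CEBPA, MPO, LYZ and FLT3 had a promoter peak in all 4 libraries, whereas the CD33 promoter had none. Of 14 erythroid and megakaryocyte markers no promoter was called in all 4 libraries, against 9 of 24 B lineage markers and 6 of 21 T and NK markers.

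Regions called in all 4 libraries outnumbered those called in both controls of 1 line alone. In all, 36951 regions (28.6%) were called in all 4 libraries, 4685 (3.63%) were MOLM13-only and 12562 (9.72%) were MV4-11-only. A further 53121 regions were called in 1 library and 21855 in another combination. Shared regions were wide and strong, with a median width of 545 bp and a median of 31 reads in the strongest library, and 29.3% lay within 1 kb of a start site. MOLM13-only regions had a median width of 225 bp and 10 reads, and 10.8% lay at promoters. MV4-11-only regions had a median width of 307 bp and 17 reads, and 5.65% lay at promoters. Line-only regions therefore lay mostly away from promoters, at a median of 25.7 kb from a start site for MOLM13 and 28.2 kb for MV4-11, against 12.4 kb for shared regions.

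The MOLM13 controls overlapped about as much with the MV4-11 controls as with each other, and the MV4-11 controls overlapped more with each other. Of the kept peaks of MOLM13 control 1, 65.3% overlapped a kept peak of MOLM13 control 2, against 64.2% for MV4-11 control 1 and 65.1% for MV4-11 control 2. The MV4-11 controls overlapped in 79.6% and 78.4% of their peaks. Of the MOLM13-only regions, 2486 had a weaker peak in the full list of an MV4-11 control and 2199 (46.9%) had none. Of the MV4-11-only regions, 11791 (93.9%) had none in the full lists of MOLM13, where control 1 had no weaker peaks left to search. Leaving out 1 library loosened the rule, because only the remaining libraries were asked for a peak or its absence. Such counts could not fall below the main ones. Without MOLM13 control 1 there were 20303 MOLM13-only and 16635 MV4-11-only regions, and without MOLM13 control 2 there were 21842 and 18564. The same counts were 6937 and 22902 without MV4-11 control 1, and 7323 and 22568 without MV4-11 control 2.

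The libraries treated with VTP50469 were not used to choose the regions and so gave a second look at each line. Of the MOLM13-only regions, 58.1% and 61.4% had a kept peak in the 2 treated MOLM13 libraries, against 20.3% and 20.9% in the 2 treated MV4-11 libraries. Of the MV4-11-only regions, 71.2% and 72.8% had one in the treated MV4-11 libraries, against 19.7% and 24.6% in the treated MOLM13 libraries. Shared regions had a peak in 93.3% to 95.1%. The whole pattern, a peak in both treated libraries of the line and in neither of the other, recurred for 1313 MOLM13-only regions (28.0%) and 4557 MV4-11-only regions (36.3%), and the opposite pattern was seen for 52 and 84. Both controls of OCI-AML3, an AML line with mutant NPM1, had a peak at 747 (15.9%) of the MOLM13-only and 1816 (14.5%) of the MV4-11-only regions.

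**Figure D1:**
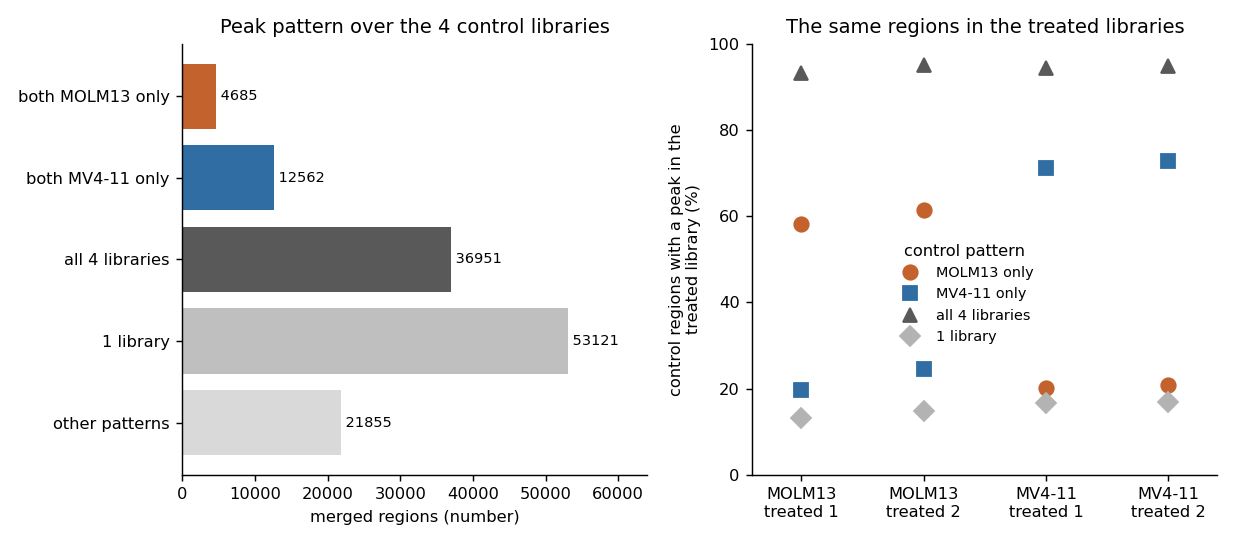
Left, the number of merged regions with each pattern of kept peaks over the 4 control libraries. Right, the percentage of the regions of each pattern that had a kept peak in each library treated with VTP50469. MOLM13-only regions recurred in 58.1% and 61.4% of cases in treated MOLM13 and in 20.3% and 20.9% in treated MV4-11, and MV4-11-only regions showed the reverse.

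At protein-coding genes, a set of zinc finger promoters of chromosome 19 had a peak in both MV4-11 controls and none in MOLM13. Of 18787 promoters (1 kb on either side of a start site), 271 (1.44%) were MOLM13-only, 336 (1.79%) were MV4-11-only and 10331 were called in all 4 libraries. Of the 262 genes on chromosome 19 whose symbols begin with ZNF, ZFP, ZSCAN or ZKSCAN, 52 (19.8%) were MV4-11-only, 1 was MOLM13-only and 119 (45.4%) were called in all 4 libraries. The 52 include ZNF470-DT, named as a divergent transcript. The group was formed after the values had been seen. The other 1145 genes of chromosome 19 had 17 MV4-11-only (1.48%) and 13 MOLM13-only promoters, and the 291 zinc finger genes elsewhere had 15 and 3. With all zinc finger genes set aside, 269 promoters (1.48%) were MV4-11-only and 267 (1.46%) were MOLM13-only.

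The 52 promoters rested on 49 distinct pairs of peaks, since divergent neighbours such as ZNF461 and ZNF567 shared one. The summit reads ran from 9 to 67 with a median of 33.5 in MV4-11 control 1, and from 11 to 70 with a median of 39 in MV4-11 control 2. None of the 52 had any peak in the full list of either MOLM13 control, where the weakest kept peaks had 4 and 3 summit reads. The full list of MOLM13 control 1 was its kept list, so only control 2 could have shown a weaker peak. Such a peak was also rare elsewhere, at 23 of all 336 MV4-11-only promoters. Along the chromosome, 13 lay among the 37 zinc finger genes of chr19:19668153-24033449, 15 among the 64 of chr19:34675979-45076478, 23 among the 112 of chr19:47573309-58476352, and ZNF426 alone among the 41 of chr19:7069703-12610920. In the same 4 stretches 10, 31, 48 and 23 zinc finger promoters were called in all 4 libraries. Promoters with and without a MOLM13 peak thus lay within the same clusters. Many of these genes are tandem copies, and how reads that match several copies were handled is not stated.

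In libraries that were not used to choose them, 51 of the 52 promoters had a kept peak in each treated MV4-11 library, and 2 and 3 in the treated MOLM13 libraries. The 4 with a peak in a treated MOLM13 library were ZNF14 (6 reads in treated 2), ZNF585A (13 reads in treated 2), ZNF583 (9 reads in both) and ZNF302 (52 reads in treated 1). ZNF302 was also the promoter with no kept peak in treated MV4-11, although the controls had 39 and 70 reads, and a region called in all 4 libraries reaches its window. In OCI-AML3, 36 of the 52 had a peak in both controls and 15 in neither. The single MOLM13-only promoter of the group, ZNF491, had 11 and 8 reads. Over all presence settings tried, the group held 51 to 62 MV4-11-only and 0 to 3 MOLM13-only promoters.

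**Figure D2:**
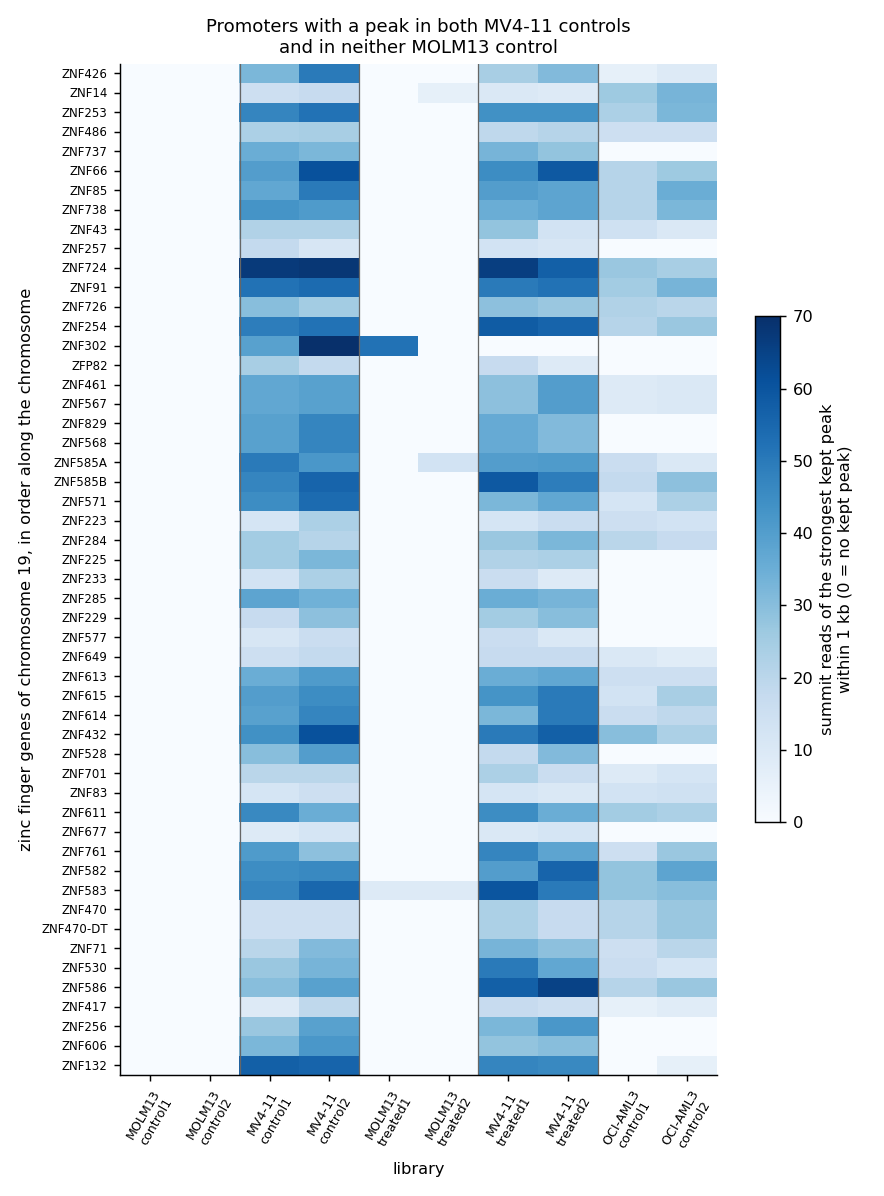
Summit reads of the strongest kept peak within 1 kb of the start site for the 52 zinc finger genes of chromosome 19 that were MV4-11-only (rows, in chromosome order), in 10 libraries (columns), with 0 where no kept peak was found. Both MV4-11 controls and treated MV4-11 libraries carry colour in nearly every row, the MOLM13 columns are blank apart from 4 genes in the treated libraries, and both OCI-AML3 controls carry colour in 36 rows.

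The strongest of these promoters belonged to ZNF724 at chr19:23249836-23250627, with 67 and 68 summit reads in MV4-11 control 1 and 2 and 66 and 57 in the treated MV4-11 libraries. ZNF132 at chr19:58439956-58440558 had 57 and 56 reads in the MV4-11 controls. ZNF91 at chr19:23394993-23395676, whose protein represses SVA elements, had 52 and 54 reads. ZNF585B had 47 and 56 reads, ZNF571 had 45 and 54, ZNF253 had 47 and 52, and ZNF582 had 45 and 46. None of the 7 had a peak in any MOLM13 list except ZNF253, with 5 reads in a full treated list. Outside protein-coding promoters, the start sites of ZNF790-AS1 at chr19:36797296-36797835, with 58 and 63 reads, and ZFP28-DT at chr19:56538186-56538769, with 59 and 52, belonged to the same clusters and were also MV4-11-only.

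Among shared zinc finger promoters the called differences were in MV4-11. Of 118 zinc finger genes of chromosome 19 whose promoter region was called in all 4 libraries and entered the fit, 12 genes at 10 regions had more summit reads in MV4-11 and 0 had more in MOLM13 (limma on log2 summit reads set to equal library medians, adjusted p under 0.05). Over all 10365 protein-coding promoters in that fit, 57 were higher in MV4-11 and 270 higher in MOLM13, and over the 36945 regions 1010 (2.73%) and 1182 (3.2%). ZNF506 had 6 and 8 summit reads in MOLM13 and 60 and 66 in MV4-11, a log2 difference of -2.35 ± 0.24 (SE), adjusted p = 0.00345 by limma. ZNF222 had 5 and 6 reads in MOLM13 and 38 and 48 in MV4-11, a log2 difference of -2.13 ± 0.25, adjusted p = 0.00409 by limma. The raw reads of neither gene overlapped between lines. The median shared region also had fewer raw reads in MOLM13 (14 and 17) than in MV4-11 (26 and 29). The median log2 difference of the 118 genes was 0.14 toward MOLM13, against 0.19 for all promoters, and their median rank shift was 0.04 against 0.35. Only promoters with a region called in all 4 libraries entered the fit. These medians therefore do not speak for the zinc finger promoters of chromosome 19 that had no such region.

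Beyond the zinc finger genes, single promoters differed from no peak to strong peaks. In MOLM13, CA2, which encodes carbonic anhydrase II, had the strongest line-only promoter, at chr8:85463227-85464379, with 97 and 100 summit reads in the controls and 105 and 129 in the treated MOLM13 libraries. No MV4-11 control list had a peak there, and only treated MV4-11 2 had a weak one of 14 reads. SLC2A8, a glucose transporter gene, had 53 and 60 reads in MOLM13 at chr9:127396550-127397459 and no peak in the MV4-11 lists. CPPED1, a phosphatase gene, had 36 and 43 reads at chr16:12803256-12804047, and TRIM32, a ubiquitin ligase gene, had 27 and 30 at chr9:116686818-116687498. Both OCI-AML3 controls had a peak at each of these 4 promoters.

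Further MOLM13-only promoters were those of ZYG11A with 29 and 33 summit reads, UGGT2 (an endoplasmic reticulum folding sensor) with 38 and 33, STXBP5L with 28 and 31, SLC37A3 with 20 and 18, PTPRM (a receptor tyrosine phosphatase) with 19 and 21, and the start shared by SEL1L2 and MACROD2 with 25 and 40. All 6 had a kept peak in both treated MOLM13 libraries and in neither treated MV4-11 library. STXBP5L had a weaker peak in the full list of MV4-11 control 2. Away from promoters, regions in SLC7A2 (40 and 40 reads) and near SRD5A3 (22 and 22 reads) were also strong and MOLM13-only. Near LOC101928626, chr1:632091-632214 had 836 and 911 reads but a fold of 1.53 and 1.51 over its local background.

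In MV4-11, the promoter of EIF5A2, which encodes an isoform of a translation factor, had 64 and 57 summit reads at chr3:170908049-170909068, with a weaker peak in the full list of MOLM13 control 2. CYB5A, encoding cytochrome b5, had 53 and 71 reads at chr18:74291776-74292443 in MV4-11, 6 and 7 in the treated MOLM13 libraries and a weaker peak in the full list of MOLM13 control 2. XKR6 had 58 and 65 reads, SVIP (an inhibitor of protein degradation at the endoplasmic reticulum) had 52 and 46, BSCL2 (seipin, for lipid droplets) had 54 and 62, and ZNF141 on chromosome 4 had 47 and 48. None of these 4 had a peak in the full list of a MOLM13 control. Of the strongest regions away from promoters, PLEKHB2 held 69 and 60 reads at chr2:131146245-131146812, ANGPTL6 held 62 and 90, and MSRA held 55 and 59.

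**Figure D3:**
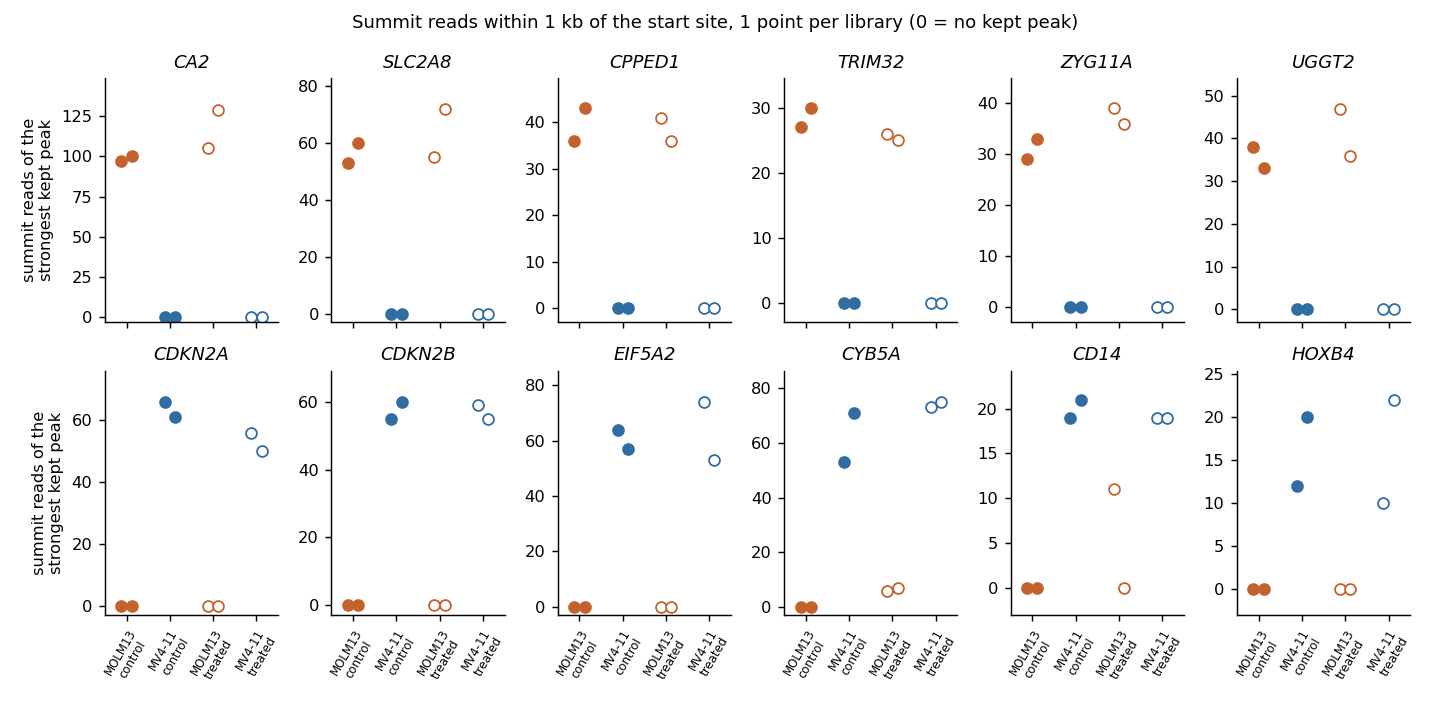
Summit reads of the strongest kept peak within 1 kb of the start site for 6 MOLM13-only (top) and 6 MV4-11-only (bottom) promoters, with 1 point per library and 0 where no kept peak was found. Filled points are controls and open points are libraries treated with VTP50469, and in each panel the treated libraries repeat the control pattern except for CD14 and CYB5A, where treated MOLM13 libraries had peaks of 11 reads and of 6 and 7 reads.

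CDKN2A and CDKN2B, neighbouring genes for the cell cycle inhibitors p16INK4a and p15INK4b and for p14ARF, had peaks in MV4-11 and none in MOLM13. The CDKN2A promoter used here, that of its outermost start, lay at chr9:21994565-21995580. It had 66 and 61 summit reads in the MV4-11 controls and 56 and 50 in the treated MV4-11 libraries. Other starts of the gene were not looked at, and the peaks were not assigned to the p16INK4a or the p14ARF transcript. CDKN2B at chr9:22008648-22009709 had 55 and 60 reads, then 59 and 55. No MOLM13 list, control or treated, had a kept peak at either start, and the full MOLM13 control lists had none. All 6 regions of the CDKN2A locus (the gene with 5 kb on each side) and the 1 region of the CDKN2B locus were MV4-11-only. Those of CDKN2A were centred -0.54, 0.25, 1.09, 8.36, 11.6 and 29.9 kb from the start used here, positive downstream. The share of MV4-11-only regions among all regions was 9.72%.

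The difference reached past both genes. Over chr9:20655625-22009313, from FOCAD through the type I interferon genes and MTAP to CDKN2B, MOLM13 controls had 34 and 40 peaks and MV4-11 controls 101 and 105, with median summit reads of 8 and 8 against 13 and 16. Of the regions there, 31 were MV4-11-only, 0 were MOLM13-only and 16 were shared. Treated libraries had 45 and 48 peaks in MOLM13 and 102 and 116 in MV4-11. The stretch was chosen after the values had been seen. In the same length before it, MOLM13 controls had 25 and 29 peaks and MV4-11 controls 37 and 39. In the same length after it, MOLM13 controls had 7 and 15 and MV4-11 controls 32 and 35. MTAP, the methylthioadenosine phosphorylase gene next to CDKN2A, was called in all 4 libraries, with 13 and 17 reads in MOLM13 and 41 and 51 in MV4-11, a log2 difference of -0.79 ± 0.25, adjusted p = 0.0775 by limma. So peaks were fewer in MOLM13 across the stretch but not absent from it.

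Whole chromosomes also differed, in the direction of MOLM13. The number of MOLM13-only regions per MV4-11-only region was 0.933 on chromosome 6, 0.77 on chromosome 8, 0.614 on chromosome 13, 0.577 on chromosome 5 and 0.555 on chromosome 20. On the other 17 chromosomes it ran from 0.205 on chromosome 22 to 0.483 on chromosome 19. Together the 5 raised chromosomes, picked after the values had been seen, held 1826 MOLM13-only (5.05%) and 2567 MV4-11-only (7.10%) of 36167 regions, and the others held 2859 (3.07%) and 9995 (10.7%) of 93007.

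At shared regions the same chromosomes had more summit reads in MOLM13. With library medians set equal, the median log2 difference was 0.44 on chromosome 8, 0.42 on chromosome 6, 0.31 on chromosome 5, 0.27 on chromosome 13 and 0.18 on chromosome 20, against -0.04 to 0.11 on the other 17. The difference of the first controls and that of the second controls were at most 0.081 apart on any chromosome. In the treated libraries the medians of the 5 chromosomes were 0.44, 0.42, 0.28, 0.26 and 0.09, in the same order. Over the 22 chromosomes the log2 ratio of line-only regions and the difference in reads had a Pearson r of 0.942, as a description of points that share libraries and depth. The DNA content of the chromosomes was not measured, and its part in these values was not tested.

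Within chromosomes the difference had borders. In 10-Mb steps along chromosome 20 the median was 0.50, 0.49 and 0.32 over the first 30 Mb and then 0.04, 0.06, 0.03 and -0.20. On chromosome 13 it was -0.10 and 0.03 between 20 and 40 Mb and 0.18 to 0.56 beyond. On chromosome 6 all 17 steps lay between 0.29 and 0.70, and on chromosome 8 all 15 lay between 0.18 and 0.69. On chromosome 9 the step from 20 to 30 Mb, which holds CDKN2A, had -0.44. Chromosome 19, whose median was 0.11, had -0.02 and 0.07 over the first 20 Mb and then 0.25, 0.28, 0.19 and 0.24.

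**Figure D4:**
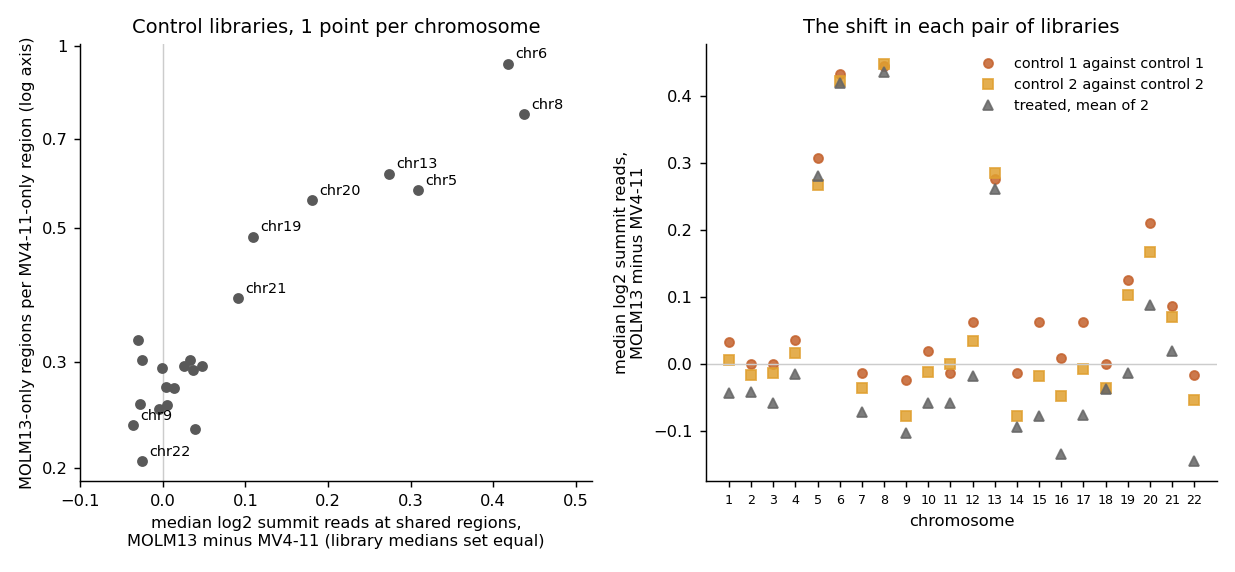
Left, the number of MOLM13-only regions per MV4-11-only region (log axis) against the median log2 difference in summit reads at shared regions (MOLM13 minus MV4-11), with 1 point per chromosome and chromosomes 6, 8, 5, 13 and 20 at the upper right. Right, the same difference for the first controls, the second controls and the mean of the treated libraries by chromosome, where the 3 markers lie close together on chromosomes 5, 6, 8 and 13.

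Some genes held many line-only regions. DACH1, which encodes a transcriptional repressor, held 9 MOLM13-only, 0 MV4-11-only and 2 shared regions of 45, and an unbroken run over chr13:71616153-71865068 held 34 regions called in MOLM13 alone, 10 of them in both controls. At the DACH1 promoter itself, summit reads were 62 and 75 in MOLM13 and 16 and 20 in MV4-11, a log2 difference of 2.76 ± 0.25, adjusted p = 0.00345 by limma, against 0.27 for chromosome 13. The treated libraries had 54 and 47 against 13 and 17. ZNF521, a zinc finger gene of progenitor cells, held 5 MOLM13-only and 0 MV4-11-only regions of 20, and its promoter had 37 and 40 reads in MOLM13 and 15 and 17 in MV4-11, a log2 difference of 2.1 ± 0.25, adjusted p = 0.00409 by limma. ADGRV1 held 8 MOLM13-only regions of 40, SLC35F1 held 6 of 26, and EDIL3 and THRB held 5 each, all with 0 MV4-11-only regions. These loci were picked for their counts.

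In the other direction, CNTNAP2 held 14 MV4-11-only and 0 MOLM13-only regions of 56, PTPRG (a receptor tyrosine phosphatase gene) held 11 and 0 of 23, SND1 held 11 and 1 of 35, ELMO1 held 10 and 1 of 55, and SLC24A3 held 10 and 0 of 33. At the PTPRG promoter summit reads were 7 and 7 in MOLM13 and 35 and 46 in MV4-11, a log2 difference of -1.69 ± 0.25, adjusted p = 0.00848 by limma. By contrast the ELMO1 promoter had 27 and 33 reads in MOLM13 and 57 and 59 in MV4-11, a log2 difference of -0.13 ± 0.24, adjusted p = 0.80 by limma. By number of regions, the run called in MV4-11 alone with the most lay at UNC5C, over chr4:95216046-95607022, with 42 regions, 16 of them in both controls. The GIMAP cluster on chromosome 7, which encodes GTPases of immune cells, had 4 MV4-11-only promoters of 8 gene entries. Among the 4 was GIMAP1-GIMAP5, an entry that joins the names of GIMAP1 and GIMAP5, so the 4 are not all separate genes. These promoters too were noticed after the values had been seen. GIMAP8 had 15 and 23 reads, GIMAP5 had 16 and 18, and GIMAP1 had 19 and 25, all with no peak in the full MOLM13 control lists, though GIMAP1 had 9 and 6 reads in treated MOLM13.

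The genes of the fusions and of the menin complex did not show such differences. All 18 promoters of the list of menin, MLL1 and fusion partners were called in all 4 libraries. KMT2A had 40 and 42 summit reads in MOLM13 and 70 and 61 in MV4-11. MLLT3, the partner gene in MOLM13, had 19 and 16 against 45 and 59, and AFF1, the partner gene in MV4-11, had 33 and 37 against 51 and 63. MV4-11 had more reads at all 3, as it did at the median shared region. After ranking of the fold within each library, the shift was 0.61 ± 0.43 at KMT2A (adjusted p = 0.50 by limma), 0.08 ± 0.46 at MLLT3 (adjusted p = 0.95 by limma) and 0.37 ± 0.41 at AFF1 (adjusted p = 0.68 by limma), in SD of normal scores and positive where MOLM13 ranked higher. The MLLT3 shift turned to -0.73 ± 0.27 on log2 summit reads (adjusted p = 0.12 by limma). MEN1 had 34 and 21 reads against 41 and 56, and DOT1L had 26 and 39 against 56 and 73. A peak at these start sites does not tell the fused allele from the normal one.

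Of 24 MLL fusion targets, 18 promoters were called in all 4 libraries, 0 were MOLM13-only and 0 were MV4-11-only. The shares of such promoters over all genes were 1.44% and 1.79%. MEIS1, the HOX cofactor, had 41 and 33 summit reads in MOLM13 and 50 and 60 in MV4-11, a rank shift of 0.35 ± 0.49 (adjusted p = 0.75 by limma). PBX3, its partner, had 33 and 43 against 59 and 69, a shift of 0.22 ± 0.42 (adjusted p = 0.82 by limma). FLT3, a receptor tyrosine kinase gene, had 44 and 71 against 115 and 101, a shift of 0.19 ± 0.47 (adjusted p = 0.87 by limma). HOXA9 was called in MOLM13 control 2 with 19 reads and in MV4-11 control 1 with 27, and CDK6 had 26 in MOLM13 control 1 and 33 and 35 in the MV4-11 controls, so neither followed the line. MEF2C and PROM1 had no kept peak at their outermost start site in any control library.

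The loci of these targets held line-only regions of both kinds. The 24 loci held 434 regions, of which 25 (5.76%) were MOLM13-only and 19 (4.38%) MV4-11-only, against 3.63% and 9.72% of all regions. The MEIS1 locus held 3 MOLM13-only regions of 21, each with a weaker peak in the full list of an MV4-11 control. MEF2C held 3 MOLM13-only and 1 MV4-11-only region of 28, among them chr5:88813952-88814505 with 19 and 17 reads in MOLM13. FLT3 held 3 MV4-11-only regions of 14, one of them upstream of the start at chr13:28101996-28102148, with 26 and 27 reads. ZNF521 and MYC had more summit reads in MOLM13 by the limma fit on reads, and at MBNL1 neighbouring regions went opposite ways. MYC had 77 and 65 against 52 and 65, a log2 difference of 1.11 ± 0.27 (adjusted p = 0.0355 by limma), where chromosome 8 had 0.44. The MBNL1 region at chr3:152244096-152244508 had 23 and 17 against 15 and 18, a log2 difference of 1.1 ± 0.29 (adjusted p = 0.0453 by limma), while chr3:152242957-152243215, within 1 kb of the same start, was MV4-11-only with 14 and 37 reads.

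In the HOXA cluster, HOXA4 and HOXA10 were called in all 4 libraries and HOXA11 was MOLM13-only, with 19 and 29 summit reads in the controls, 32 and 24 in the treated MOLM13 libraries and a weaker peak in both full MV4-11 control lists. In the HOXB cluster HOXB4, a stem cell regulator, was MV4-11-only, with 12 and 20 reads in the controls and 10 and 22 in the treated libraries, while 7 of the 10 promoters had no kept peak. No full MOLM13 control list had a peak at HOXB4.

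At lineage genes few promoters were line-only. The monocyte marker loci held 15 MV4-11-only (11.8%) and 3 MOLM13-only (2.36%) of 127 regions, not far from the 9.72% and 3.63% of all regions. Of 25 monocyte markers, 9 promoters were called in all 4 libraries and CD14, the lipopolysaccharide coreceptor, was the only line-only one. It had 19 and 21 summit reads in the MV4-11 controls, 19 and 19 in treated MV4-11, none in the MOLM13 controls and 11 in treated MOLM13 1. ITGAM, which encodes the integrin CD11b, had 7 and 9 reads in MOLM13 and 27 and 27 in MV4-11. Its rank shift of -1.94 ± 0.42 did not pass (adjusted p = 0.0962 by limma), and on log2 summit reads the difference was -0.93 ± 0.25 (adjusted p = 0.0474 by limma). The same fit on reads called MNDA in the other direction. It had 21 and 26 reads in MOLM13 and 15 and 26 in MV4-11, a log2 difference of 1.07. LYZ, the lysozyme gene, had 15 and 13 against 24 and 25, a shift of -0.23 ± 0.41 (adjusted p = 0.81 by limma), and CSF1R had no kept peak at its outermost start. Of 16 monocyte transcription factors 13 were shared, among them SPI1 and CEBPA, and IRF4 was MV4-11-only with 15 and 18 reads.

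Primary granule genes were shared at 10 of 14 promoters. MPO, the myeloperoxidase gene, had 14 and 13 summit reads in MOLM13 and 27 and 33 in MV4-11, a shift of -0.23 ± 0.52 (adjusted p = 0.85 by limma). PRSS57 was MOLM13-only with 8 and 9 reads, but treated MV4-11 1 had a peak of 12. MS4A3, a granulocyte progenitor gene, had 5 and 9 reads against 27 and 32, a log2 difference of -1.30 ± 0.27 (adjusted p = 0.0225 by limma), though its rank shift had an adjusted p of 0.14. AZU1 was called in the other direction by the same fit on reads. It had 18 and 22 reads in MOLM13 and 14 and 20 in MV4-11, a log2 difference of 1.08. Of 20 stem and progenitor genes, SPINK2 and ANGPT1 were MOLM13-only. SPINK2 had 6 and 12 reads in MOLM13 and no peak in the full MV4-11 control lists, and ANGPT1 had 16 and 22, with a weaker peak in both. KIT had 14 and 13 reads against 28 and 31, a shift of 0.40 ± 0.42 (adjusted p = 0.67 by limma), and CD34 and GATA2 had no kept peak at the outermost start.

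B lineage loci held more MV4-11-only regions, 24 (15.6%) of 154 against 9.72% of all regions, and 5 (3.25%) MOLM13-only regions against 3.63%, but none of the 24 promoters was line-only. PAX5, the B cell identity factor, had 14 reads in MOLM13 control 2 and 21 and 21 in the MV4-11 controls, and its locus held 5 MV4-11-only and 1 MOLM13-only region of 18. EBF1, the early B cell factor gene, had 31 and 37 reads in MOLM13 and 22 and 29 in MV4-11, a log2 difference of 1.25 ± 0.25 (adjusted p = 0.0198 by limma) on a chromosome whose median was 0.31. Of 21 T and NK markers LEF1 alone was MOLM13-only, with 9 and 12 reads, a weaker peak in both MV4-11 control lists and 17 reads in treated MV4-11 2, and of 14 erythroid and megakaryocyte markers none was line-only.

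Among the other lists, ITGB2 (an integrin beta chain) was the only line-only promoter of 26 receptor and adhesion genes. It had 14 and 17 reads in the MV4-11 controls. In the treated libraries its region had a kept peak in MOLM13 1 and none in MV4-11. The loci of that list held 18 MV4-11-only (9.47%) and 3 MOLM13-only (1.58%) of 190 regions. Of 22 interferon response genes IFI44 was MV4-11-only with 10 and 12 reads, and OAS2, an antiviral enzyme gene, had 6 and 11 in MOLM13 against 41 and 49, a log2 difference of -1.63 ± 0.27 (adjusted p = 0.0119 by limma). Of 16 cell cycle inhibitors and tumour suppressors, CDKN2A, CDKN2B and TP73 (14 and 17 reads) were MV4-11-only. No promoter was line-only among 22 STAT5 and MAPK feedback genes, 14 AP-1 genes, 14 MHC class II genes or 18 housekeeping genes, of which 20, 11, 7 and 18 were called in all 4 libraries. By the limma fit on log2 summit reads, the lists of this paragraph held NCAM1, SPRY1, SPRY4, IER3 and EEF1A1 as higher in MOLM13. Only OAS2 was higher in MV4-11. IER3 had 29 and 29 reads in MOLM13 and 18 and 19 in MV4-11, a log2 difference of 1.48, where chromosome 6 had 0.42. Over all promoters in the fit the median rank shift was 0.35 and the median log2 difference in reads 0.19, both toward MOLM13, and housekeeping genes had medians of 0.45 and 0.28.

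**Figure D5:**
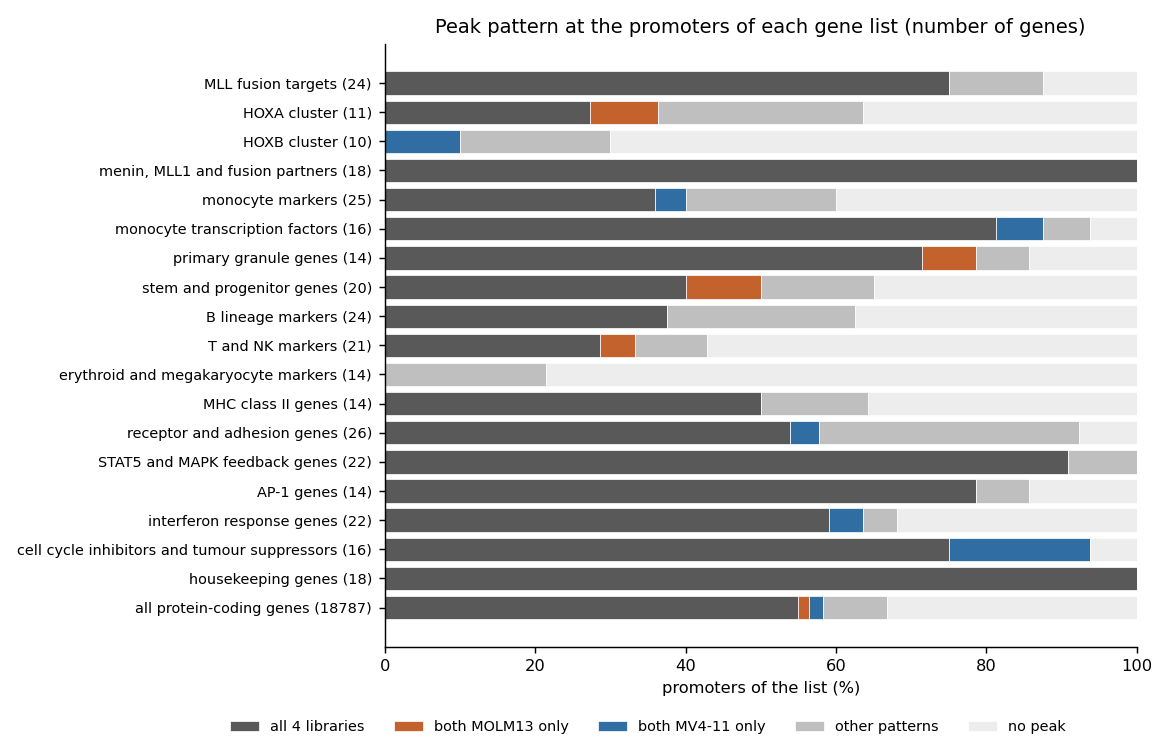
Percentage of the promoters of each gene list (number of genes in brackets) that had kept peaks in all 4 control libraries, in both MOLM13 controls alone, in both MV4-11 controls alone, in another combination or in none, with all 18787 protein-coding promoters at the foot. Coloured segments are the line-only promoters, 0 to 2 genes in every list except the cell cycle inhibitors and tumour suppressors, with 3 of 16.

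At regions called in all 4 libraries, few differences in strength exceeded the spread between replicates when the fold was ranked within each library. Of 36951 regions, 0 were higher in MOLM13 and 14 (0.0379%) were higher in MV4-11 (limma on normal scores, Benjamini-Hochberg adjusted p under 0.05), where an unadjusted p under 0.05 was reached by 2624 and 3361. The correlation of scores over regions was 0.703 between MOLM13 controls, 0.774 between MV4-11 controls and 0.549 to 0.613 between lines. ZNF222, with 5 and 6 summit reads in MOLM13 and 38 and 48 in MV4-11, had a shift of -3.73 ± 0.41 (adjusted p = 0.0378 by limma). ZNF506 had a shift of -3.34 ± 0.43 (adjusted p = 0.0493 by limma). They were the only protein-coding promoters of the 14. Without MV4-11 control 1, or without MV4-11 control 2, no region passed, and without MOLM13 control 1 or 2 there were 339 and 470 higher in MOLM13 and 909 and 1447 higher in MV4-11.

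The other 12 regions lay at SIPA1L1 (5 and 6 summit reads in MOLM13 against 43 and 42 in MV4-11), PTPRG-AS1 (4 and 5 against 60 and 50), PRR20G (6 and 6 against 48 and 56), ZFHX4-AS1, LINC01781, LINC00997, POLB, LNX1, LINC00621, PTPRB, LOC105370547 and 4.17 kb before CA2. At the CA2 region, chr8:85459317-85459837, the reads were 29 and 27 in MOLM13 and 54 and 49 in MV4-11, a log2 difference of -0.05 ± 0.26, while the fold was 3.59 and 3.19 against 16.3 and 13.7. It lies beside the MOLM13-only promoter peak described above. In the treated libraries 10 of the 14 regions could be fitted, and all 10 were again higher in MV4-11. None of the regions that ranked higher in MOLM13 passed. The first of them, near LINC01549 at chr21:17454374-17454957, had 32 and 37 reads against 11 and 11 (adjusted p = 0.0579 by limma), and ARC, an activity-regulated gene of neurons, had 48 and 54 against 17 and 17 (adjusted p = 0.0579 by limma).

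A fit on log2 summit reads, chosen after the data had been seen, called more regions, 1182 (3.2%) higher in MOLM13 and 1010 (2.73%) higher in MV4-11. Besides DACH1 and ZNF521, the promoters of LAPTM4B (50 and 62 against 18 and 19 reads), MATN2 (37 and 44 against 12 and 17) and KCTD1 (23 and 28 against 11 and 13) were higher in MOLM13, the first 2 of them on chromosome 8 with its median of 0.44. CROT, a peroxisomal acyltransferase gene (6 and 8 against 59 and 67), DYRK1B, a kinase gene (6 and 9 against 62 and 79), and ZNF736 (6 and 8 against 52 and 54) were higher in MV4-11. In the treated libraries, ranked by fold, 783 of the 909 MOLM13 regions and 737 of the 809 MV4-11 regions that could be fitted had the same sign. Centred by chromosome, the counts were 626 and 864.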

How the data were processed

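Bulk ATAC-seq peak lists of 4 control libraries were compared, 2 each of MOLM13 and MV4-11, with 4 treated libraries and 2 OCI-AML3 controls for lookup. Per the labels, the authors used bcl2fastq 2.17, Trimmomatic 0.33, Bowtie 1.1.2 and MACS2 2.1.0 on hg38, whereas their supplementary methods name another aligner. Peaks were called per library, and the calling options, read shift and duplicate handling are not given in the sources used here. The deposited ratio is the fold of summit reads over the local background of the library, and the deposited −log10 p and q-value are those of the summit. No value was normalised between libraries. Peaks past the GRCh37 ends of chromosomes 17 (772) and 20 (402) fitted hg38.

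The read number at each summit was solved from fold and p, to a tolerance of 0.001, for at least 99.99% of peaks. They cover counting error only and are not independent molecules. The weakest kept peaks had 4, 3, 6 and 7 reads and −log10 p of 3.47, 4.93, 7.51 and 8.34 (MOLM13 control 1 and 2, MV4-11 control 1 and 2). Chromosomes X and Y were left out. Promoters were 1 kb on either side of the outer start of RefSeq genes, 18787 of them protein-coding, and a locus was the gene with 5 kb on each side.

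Strength was the normal score of the rank of fold within a library at regions called in all 4, tested with limma 3.58.1 in R 4.3.3 (moderated, two-sided, Benjamini-Hochberg over all regions), MOLM13 minus MV4-11. The test was tried on simulated data. Other calculations used Python 3.11.15. Alternatives were other list lengths, ranking columns, thresholds, overlap windows, scales, a replicate block and leaving out each library. Named genes were the 10 strongest line-only regions and promoters and the 10 smallest p-values in each direction, line-only or called genes of 18 lists, and a set of genes named whatever they showed. The members, lists and rules were chosen with earlier results of these data known.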

Additional observations from a re-analysis of the deposited data

How the results depend on the processing

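Line-only counts kept their order (more in MV4-11) under all list settings, while their size did not. With the full lists there were 2565 MOLM13-only and 27041 MV4-11-only regions, with a −log10 q of at least 5 there were 1030 and 24057, and with the strongest 40000 peaks there were 3909 and 5784. Leaving out 1 library gave 6937 to 21842 and 16635 to 22902, and without either MOLM13 control the order reversed. These counts follow the looser rule, with 1 library deciding for a line, and are not like for like. Cutting by fold (4932 and 12848) or summit windows (5940 and 12826) moved them by under 1.5 times.

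Strength calls depended on the setting. Against 0 higher in MOLM13 and 14 in MV4-11 there were 8 and 136 with the replicate block, 7 and 76 on log2 fold, 68 and 254 among regions of above-median fold, 2 and 58 with the strongest 40000, and 1182 and 1010 on log2 summit reads or 626 and 864 centred by chromosome (both chosen after seeing the data). By rank of −log10 p, full lists or summit windows there were 0 and 0. Leaving out 1 library gave 0 to 470 and 0 to 1447, the lone library being assumed to vary like the others. The cause was not tested.

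The replicate numbers did not pair the libraries (correlation of same-numbered deviations 0.02), and the replicate block left the ZNF222 and ZNF506 calls in place. Both calls were lost without MV4-11 control 1 or 2, by −log10 p, with full lists and with summit windows, where the ZNF222 shift was -3.73, -3.73, -2.96, -3.60 and -3.69 and that of ZNF506 was -3.15, -3.52, -3.03, -3.23 and -3.29. The shift of MLLT3 reversed to -0.60 by −log10 p, -0.73 on log2 reads and -0.59 centred by chromosome, and that of FLT3 to -0.89, -0.12 and -0.37. Leaving out 1 library gave -0.29 to 0.45 for MLLT3, -0.21 to 0.58 for FLT3 and -0.28 to 0.97 for MEIS1. Median summits of shared regions were lower in MOLM13 (14 and 17 reads) than in MV4-11 (26 and 29), and the part of depth in the line-only counts was not tested.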
